A study of Saccharomyces cerevisiae with 8 samples.

Results

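Nucleosomes were compared between 2 budding yeast strains at the 0 h time point, in 4 of the 8 paired-end MNase-seq libraries of the series. The H3 shutoff strain, DCB200.1, lacks HHT1 and carries HHT2 behind the GAL1 promoter, so that its single remaining histone H3 gene is transcribed in galactose and repressed in dextrose. The wildtype strain, YEF473A, holds both H3 genes under their own promoters. Both strains were grown in rich galactose medium, filtered, washed and resuspended in dextrose medium, and the 0 h cells went into formaldehyde at once, so the label marks the moment of the transition and not galactose culture. The 2 H3 shutoff libraries are replicates 3 and 4. The 2 wildtype libraries, B and C, both carry the number 1 in their titles, and nothing says what that number marks. Where separate cultures are not stated, the tests below measure the spread between these libraries, which may be technical. The comparison asks what chromatin the depletion experiment started from.

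A nucleosome is DNA wrapped around an octamer of the core histones H2A, H2B, H3 and H4. Micrococcal nuclease (MNase) digests the linker between nucleosomes and leaves the wrapped DNA, whose sequenced fragments mark where each nucleosome lay, with the fragment midpoint (read center) standing for its dyad. In yeast genes a nucleosome-depleted region lies upstream of the transcription start, a strongly positioned +1 nucleosome follows it, and the nucleosomes further into the gene form an array that loses its phase with distance. A nucleosome that sits at 1 place in every cell gives a narrow cluster of read centers, and one that sits at different places gives a wide cluster. The SD of the read centers of a called nucleosome, in bp, is its fuzziness.

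Each library held 5000001 fragments of 100 to 200 bp. Some stretches of the genome held many deposited fragments in only a part of the libraries. Of the 200-bp tiles, 273 held at least 20 read centers in 1 library and at most 2 in another, and in 144 of them H3 shutoff replicate 4 and wildtype B were high while H3 shutoff replicate 3 and wildtype C were low. Only 4 tiles were high in both libraries of a strain and low in both of the other. At 3 h the wildtype libraries changed places in those 144 tiles. Wildtype B held 9687 read centers there at 0 h and 51 at 3 h, and wildtype C 42 and 6394, while H3 shutoff replicate 3 held 29 and 79 and replicate 4 held 6687 and 7569. The 273 tiles held 0.0358% and 0.189% of the fragments of H3 shutoff replicates 3 and 4, and 0.252% and 0.0242% of those of wildtype B and C. Without them the median fuzziness was 33.3 and 32.7 bp in the H3 shutoff libraries and 27.5 and 27.6 bp in wildtype, within 0.1 bp of the values with them. Between the 2 libraries that were high in most of these tiles, H3 shutoff replicate 4 and wildtype B, the median fuzziness differed by 5.22 bp, and between the 2 that were low, H3 shutoff replicate 3 and wildtype C, by 5.68 bp.

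The H3 genes were altered in 1 strain only, so stretches present in 1 strain were looked for first. The RefSeq gene table names HHT1 on chromosome 2 and HHT2 on chromosome 14, but it is of another build than the files, so neither gene was located. Positions are those of the deposited files. The methods name sacCer1 as the build, which was not checked against a genome here, so a position is tied to the files and not to a build. Stretches of at least 50 bp that no fragment covered in either library of 1 strain, and at least 5 fragments covered everywhere in both libraries of the other, numbered 5 in the genome. Of these, 4 were uncovered in the H3 shutoff strain, 3 on chromosome 2 and 1 on chromosome 14, the chromosomes of the 2 H3 genes.

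The 3 stretches on chromosome 2 lay close together, at 256159 to 256329, 256706 to 256798 and 256915 to 257052. The first held 0 read centers in both H3 shutoff libraries and 11 and 18 in wildtype B and C. The second held 0 and 0 against 32 and 29, and the third 0 and 0 against 25 and 33. Against the floor of 3 counts over the group, wildtype was at least 9.67-fold, 20.3-fold and 19.3-fold higher. Between the first and the second, at 256330 to 256705, the H3 shutoff libraries held 22 and 19 read centers and the wildtype libraries 80 and 117, so this inner part was low but covered. The stretch on chromosome 14, at 576018 to 576176, held 0 and 0 read centers in the H3 shutoff libraries and 33 and 44 in wildtype, at least 25.7-fold more.

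The remaining stretch went the other way. At 461742 to 462349 on chromosome 4, over 608 bp, the H3 shutoff libraries held 274 and 251 read centers and the wildtype libraries 0 and 0, at least 175-fold more in the H3 shutoff strain. What lies there was not assigned. The stretches were searched for by the strain labels, so they describe the strains and are no separate test of them.

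**Figure D1:**
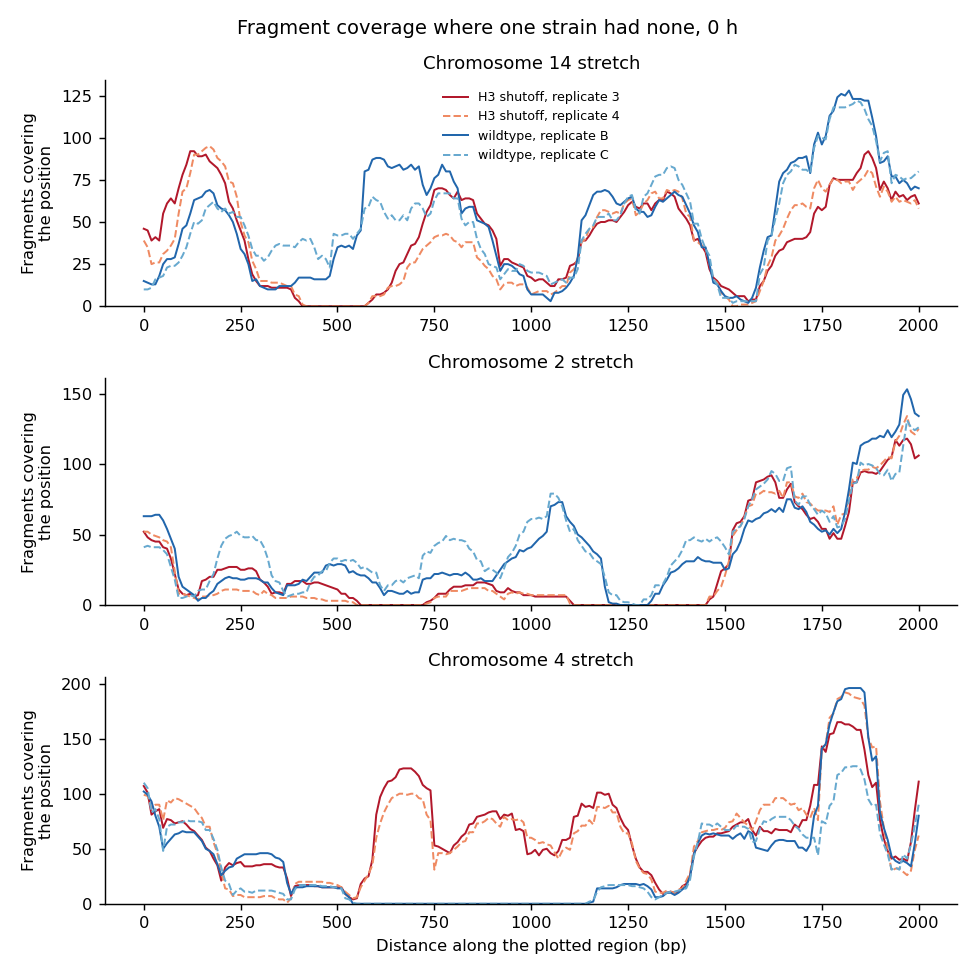
Fragments covering each position (y axis) along 3 regions (x axis, bp from the left edge of the plot) in the 4 libraries at 0 h. Both H3 shutoff libraries drop to 0 inside the chromosome 14 and chromosome 2 regions where both wildtype libraries are covered, and both wildtype libraries are at 0 over the 608-bp stretch of chromosome 4.

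Nucleosomes were fuzzier in the H3 shutoff strain at 0 h. The median fuzziness of the deposited calls with more than 5 read centers was 33.2 and 32.7 bp in H3 shutoff replicates 3 and 4, and 27.5 and 27.5 bp in wildtype B and C. Both H3 shutoff libraries lay above both wildtype libraries, and the means differed by 5.45 bp (32.96 ± 0.373 against 27.5 ± 0.0435 bp, SD, n = 2 each). With 2 libraries per strain the exact two-sided permutation test cannot go below p = 0.333, which was its value here and for every comparison of library values below whose strains do not overlap. The whole distribution moved. The 10th percentile was 22.0 and 21.9 bp in the H3 shutoff libraries and 16.9 and 17.2 bp in wildtype, and the 90th was 43.0 and 41.9 bp against 38.9 and 38.3 bp. Sharply placed nucleosomes, under 20 bp, made up 6.21% and 6.02% of calls in the H3 shutoff strain and 20.3% and 19.4% in wildtype. Calls over 40 bp made up 20.4% and 16.4% against 7.75% and 6.11%. On each of the 16 chromosomes both H3 shutoff medians lay above both wildtype medians, by 4.80 to 5.91 bp between the strain means.

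Fragment length also differed between the strains. The mean was 157.2 and 152.9 bp in H3 shutoff replicates 3 and 4 and 150.6 and 146.0 bp in wildtype B and C (155.1 ± 3.03 against 148.3 ± 3.25 bp, SD, n = 2 each). The strains did not overlap, but the gap between H3 shutoff replicate 4 and wildtype B was smaller than the gap between the 2 libraries of either strain. Fragments of 100 to 129 bp made up 4.78% and 7.20% of the H3 shutoff libraries and 11.0% and 16.7% of the wildtype libraries, and fragments of 170 to 200 bp 19.0% and 10.1% against 8.26% and 4.28%. Fragment length reflects the depth of MNase digestion and the gel band excised as well as the nucleosomes, and these cannot be told apart here.

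**Figure D2:**
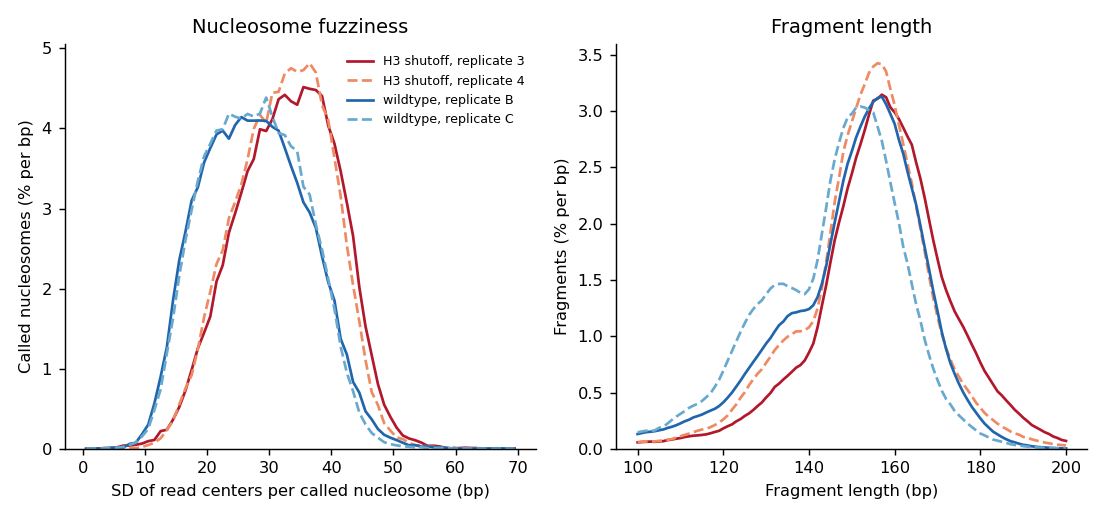
Left, the share of called nucleosomes (% per bp) by the SD of their read centers (bp). Right, the share of fragments (% per bp) by length (bp). One line per library at 0 h. The H3 shutoff lines lie to the right of the wildtype lines in fuzziness, with medians of 33.2 and 32.7 bp against 27.5 and 27.5 bp, and the fragment lengths shift from wildtype C to H3 shutoff replicate 3.

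Fuzziness as deposited is taken over the protected region of a nucleosome, whose width is the mean fragment length there, so longer fragments widen the window. The spread was therefore measured again within 73 bp of the centers of 53935 reference nucleosomes, called on the 4 libraries together and holding more than 20 read centers in each. The median was 31.2 and 31.2 bp in the H3 shutoff libraries and 26.5 and 27.1 bp in wildtype, a difference of 4.39 bp. When fragments were drawn to 1 common length distribution, the medians in this window were 30.4 and 30.8 bp against 25.8 and 26.4 bp. With fragments of 140 to 160 bp alone they were 29.1 and 29.4 bp against 24.4 and 25.0 bp. The strains did not overlap under any of these, and the difference between their means was 4.48 and 4.55 bp in the last 2.

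The same held within single classes of fragment length. The root mean square spread of fragments of 145 to 154 bp around their nucleosomes was 29.3 and 29.6 bp in the H3 shutoff libraries and 25.5 and 26.2 bp in wildtype. For fragments of 165 to 179 bp it was 30.7 and 31.1 bp against 25.8 and 26.9 bp, and for fragments of 120 to 134 bp 31.3 and 31.0 bp against 28.2 and 28.2 bp. Both H3 shutoff libraries were above both wildtype libraries in each of these classes. Fragments of equal length can still come from samples digested to different depths. The part of digestion depth in the spread was not tested.

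Fewer read centers lay close to a nucleosome center in the H3 shutoff strain. Within 10 bp of the nearest of all the reference centers lay 32.1% and 31.2% of read centers in the H3 shutoff libraries and 38.2% and 35.8% in wildtype. Within 50 bp lay 76.1% and 76.1% against 82.3% and 80.8%. The centers are density peaks of the 4 libraries together, so a library with sharper peaks lies nearer to them in part by construction. The size of that part was not tested. The exact 95% binomial intervals of these shares were at most 0.0876 percentage points wide and cover counting error only.

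Nucleosome by nucleosome, the spread of the deposited calls was larger in the H3 shutoff strain at 8101 of 46772 matched nucleosomes and smaller at 20 (limma with a trend on read centers, Benjamini-Hochberg adjusted p under 0.05). In each library the nearest deposited nucleosome within 73 bp of a reference center was taken, so the centers compared can differ between libraries. The 8121 calls are 17.4% of those tested, 17.3% in the larger direction and 0.0428% in the smaller. The median difference over all tested nucleosomes was 5.03 bp. The median absolute difference was 5.09 bp between the strain means, 2.93 bp between the 2 H3 shutoff libraries and 2.76 bp between the 2 wildtype libraries. At 65.3% of nucleosomes both H3 shutoff values were above both wildtype values, and at 1.92% both were below. The number of calls rested on the libraries used. Without H3 shutoff replicate 3 no nucleosome passed, with 11948 at an unadjusted p under 0.05 and a median difference of 4.72 bp, and without H3 shutoff replicate 4 there were 3516 calls. In the fixed 73-bp window 3832 of 53935 passed (7.1%), with 3811 of them larger in the H3 shutoff strain (7.07%), and both H3 shutoff values lay above both wildtype values at 54.7% of nucleosomes and below them at 4.33%. With the common length distribution and the calls made again 1461 of 42742 passed, with a median difference of 4.16 bp, and with fragments of 140 to 160 bp 1 of 34598 passed, with a median difference of 4.18 bp.

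The single nucleosomes named next had some of the largest differences and are not typical. Over all tested nucleosomes the median difference was 5.03 bp and the 90th percentile 10.6 bp. The nucleosome at 228655 on chromosome 6 had a fuzziness of 52.4 and 48.2 bp in the H3 shutoff libraries and 19.0 and 19.8 bp in wildtype. The strains lay far apart, by 30.9 ± 3.13 bp (SE, limma adjusted p = 0.0123), and in the fixed window the values were 46.3 and 39.5 bp against 19.0 and 21.9 bp. In the plot of its read centers, wildtype gave 1 peak at the center, while the H3 shutoff libraries gave a lower peak there with further peaks on both sides. The nucleosome at 1250680 on chromosome 4 had values of 45.0 and 44.9 bp against 14.3 and 15.2 bp, a difference of 30.2 ± 3.12 bp (SE, limma adjusted p = 0.0123). Here the H3 shutoff libraries held a second peak to the right of the center that both wildtype libraries lacked. At 772465 on chromosome 4 the values were 41.2 and 34.9 bp against 13.9 and 13.6 bp.

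Of the 6 nucleosomes with the largest differences, 5 kept the direction in the fixed window, without overlap of the strains. The exception had the largest difference of all. At 754 on chromosome 16, near the chromosome end, the deposited values were 53.3 and 59.2 bp in the H3 shutoff libraries and 23.8 and 21.6 bp in wildtype, but in the fixed window they were 22.2 and 29.4 bp against 31.8 and 29.0 bp. Its strains overlapped there and the means were in the other order.

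Smaller spread in the H3 shutoff strain was called at 20 nucleosomes. At 167130 on chromosome 7 the values were 22.8 and 25.3 bp in the H3 shutoff libraries and 42.9 and 36.4 bp in wildtype, a difference of -15.6 ± 4.22 bp (SE, limma adjusted p = 0.0327). The 6 largest of them ranged from -15.6 to -11.6 bp. In the fixed window 5 of these 6 kept the direction, and at 4 the strains did not overlap. Of the 12 named nucleosomes, only 1 lay inside a transcript of the study's own list, which covers 6 chromosomes. It was that at 10195 on chromosome 1 in YAL066W. Its deposited values were 28.7 and 31.9 bp in the H3 shutoff libraries and 40.6 and 43.3 bp in wildtype. In the fixed window they were 39.1 and 34.8 bp against 39.4 and 42.2 bp, where H3 shutoff replicate 3 and wildtype B nearly met.

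**Figure D3:**
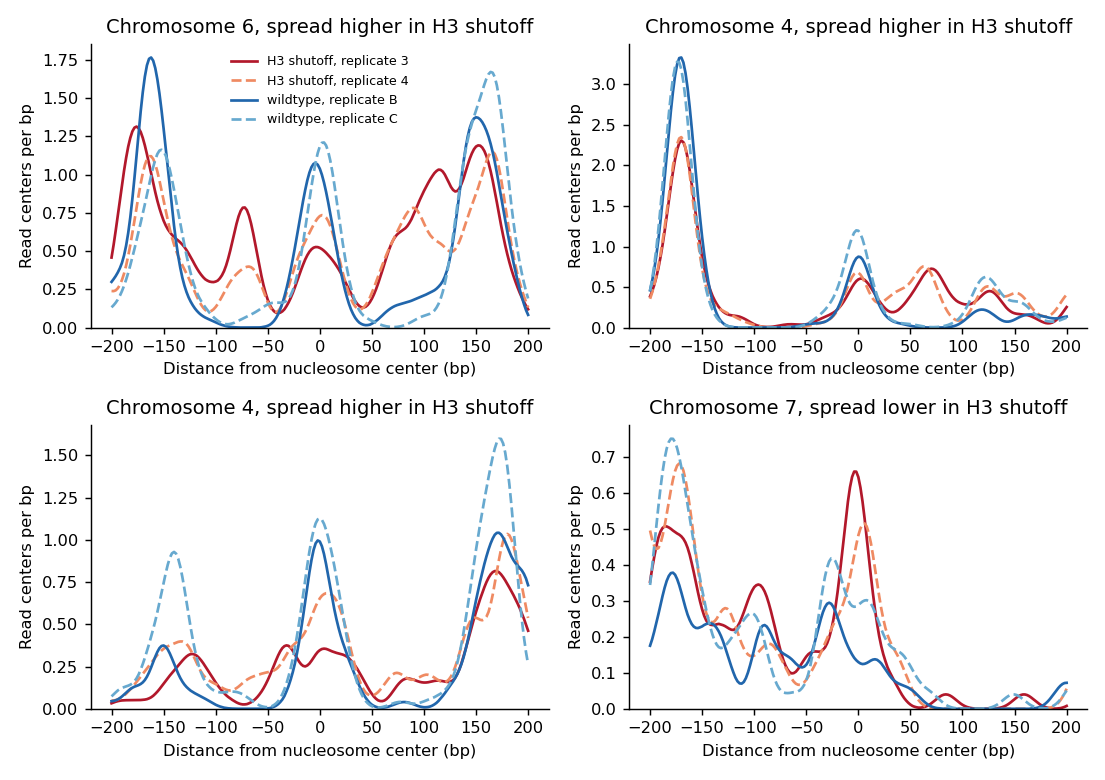
Smoothed read centers per bp (y axis) by distance from the nucleosome center (x axis, bp) in the 4 libraries at 0 h, for the nucleosomes at 228655 on chromosome 6, 1250680 and 772465 on chromosome 4 and 167130 on chromosome 7, from top left to bottom right. At the first 3 the wildtype lines form a single narrow peak at the center and the H3 shutoff lines are lower and wider, and at the fourth the H3 shutoff lines are the narrower.

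The difference in spread varied along genes. Nucleosomes were numbered from the +1 nucleosome, placed on the 4 libraries together, into listed transcripts of at least 1000 bp. At the +1 nucleosome, which borders the nucleosome-depleted region, the median spread in the fixed window was 23.1 and 23.2 bp in the H3 shutoff libraries and 19.5 and 19.8 bp in wildtype, over 909 nucleosomes. At the +3 nucleosome it was 28.3 and 27.9 bp against 20.8 and 21.5 bp, over 853. At the +7 nucleosome it was 33.4 and 33.6 bp against 27.8 and 29.7 bp, over 491. Both H3 shutoff libraries were above both wildtype libraries at each place from +1 to +7, and the median difference was 2.74, 4.82, 6.11, 6.34, 6.15, 5.36 and 4.50 bp in that order.

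The step from +1 to +3 was itself larger in the H3 shutoff strain, at 5.25 and 4.72 bp against 1.29 and 1.70 bp in wildtype, without overlap (exact permutation p = 0.333, n = 2 each). The step from +4 to +7 went the other way, at 3.11 and 3.21 bp in the H3 shutoff libraries against 4.70 and 5.82 bp in wildtype (exact permutation p = 0.333, n = 2 each). At +4 the medians were 30.3 and 30.4 bp in the H3 shutoff libraries and 23.1 and 23.9 bp in wildtype, over 771 nucleosomes. The SD in a window of fixed width cannot exceed a limit, to which the H3 shutoff libraries were nearer. The part of that limit in this step was not tested. The spread of the deposited calls passed the limma test at 8.43% of +1 nucleosomes and at 38.6% of +3 nucleosomes, beside 17.4% of all nucleosomes tested. The part that fragment length has in this pattern along genes was not tested.

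**Figure D4:**
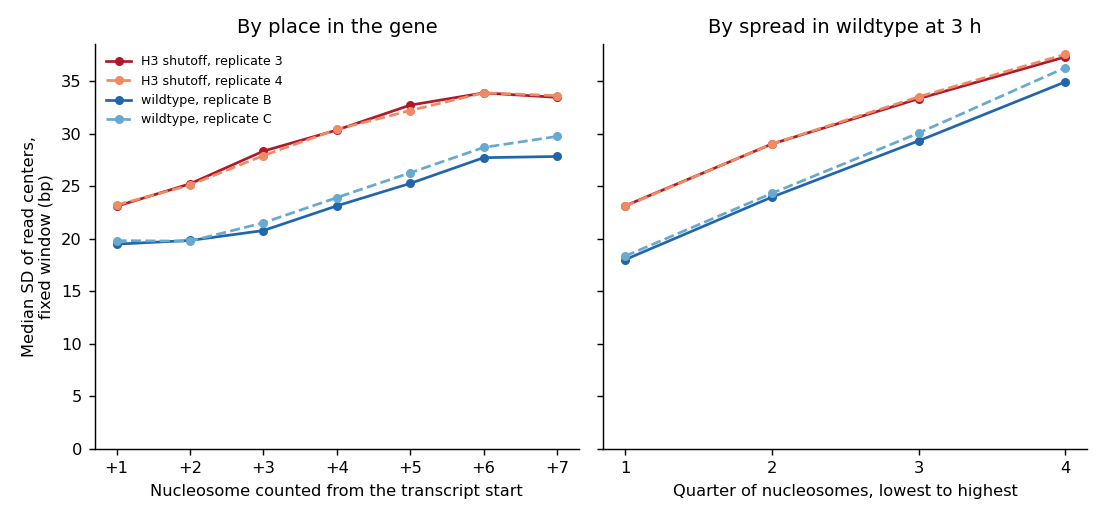
Median SD of read centers within 73 bp of the reference centers (y axis, bp), one line per library at 0 h, by place of the nucleosome in the gene (left, +1 to +7) and by group of the nucleosomes, split into 4 equal groups on their spread in the wildtype libraries at 3 h (right). The 2 H3 shutoff lines lie above the 2 wildtype lines at every point, closest at +1 on the left and in the highest group on the right.

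Nucleosomes were also ranked by their spread in the wildtype libraries at 3 h and split into 4 equal groups. Since the ranking comes from 1 of the 2 strains compared, a larger difference in the groups of low wildtype spread is in part built in, and the groups are a description with no test. The group with the least spread had medians of 23.1 and 23.1 bp in the H3 shutoff libraries and 18.0 and 18.3 bp in wildtype at 0 h. The group with the most spread had 37.3 and 37.5 bp against 34.9 and 36.3 bp. The median difference was 4.57, 4.56, 3.47 and 1.70 bp from the lowest to the highest group. The SD within a window of fixed width cannot exceed a limit, to which the highest group is nearest. Nucleosomes whose wider neighbouring distance was at most 180 bp had medians of 30.7 and 30.5 bp against 24.6 and 25.1 bp, and those beside a distance of over 250 bp had 31.5 and 31.8 bp against 27.9 and 28.3 bp. The closely packed group minus the other was -3.32 and -3.28 bp in wildtype and -0.814 and -1.28 bp in the H3 shutoff strain, without overlap (exact permutation p = 0.333, n = 2 each). Within 20 kb of a chromosome end the medians were 30.5 and 31.1 bp in the H3 shutoff libraries against 28.6 and 28.3 bp in wildtype.

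The average gene had a flatter nucleosome array in the H3 shutoff strain. Read center density, relative to the genome mean, was averaged over 1018 genes aligned on the +1 nucleosome, and the height of a peak was taken over the lowest point 40 to 140 bp after it. The +1 height was 4.14 and 3.80 in the H3 shutoff libraries and 4.76 and 4.16 in wildtype, where H3 shutoff replicate 3 and wildtype C nearly met. The difference in +1 height was -0.49, and -0.19 without wildtype B. The +3 height was 1.75 and 1.81 against 2.74 and 2.51, and the +5 height 0.673 and 0.739 against 1.23 and 1.20, with the strains well apart at both. Relative to the +1 height of the same library, the +5 height was 0.163 and 0.194 in the H3 shutoff strain and 0.258 and 0.288 in wildtype, so the peaks fell off more from +1 to +5 in the H3 shutoff libraries. The lowest density in the nucleosome-depleted region was 0.190 and 0.148 in the H3 shutoff libraries and 0.108 and 0.103 in wildtype, which was 1.61 times as much. The density at the -1 nucleosome, 1.57 and 1.46 against 1.58 and 1.49, overlapped between the strains, but with the common length distribution it was 1.54 and 1.45 against 1.59 and 1.55, lower in both H3 shutoff libraries. The other directions were the same with the common length distribution, where the +3 height was 1.85 and 1.86 against 2.81 and 2.62 and the lowest density 0.186 and 0.147 against 0.101 and 0.0969. The part of digestion depth in these heights and densities was not tested. Aligned on the listed starts, both the heights and their differences were smaller. The +1 height differed by -0.13 and the +3 height by -0.34, and the strains overlapped in neither. The +3 height was 0.825 and 0.882 in the H3 shutoff libraries against 1.29 and 1.11 in wildtype. As a percentage of the wildtype mean, these +1 and +3 differences were -8.1% and -28.6%. With alignment on the +1 nucleosome they were -11.0% and -32.1%.

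**Figure D5:**
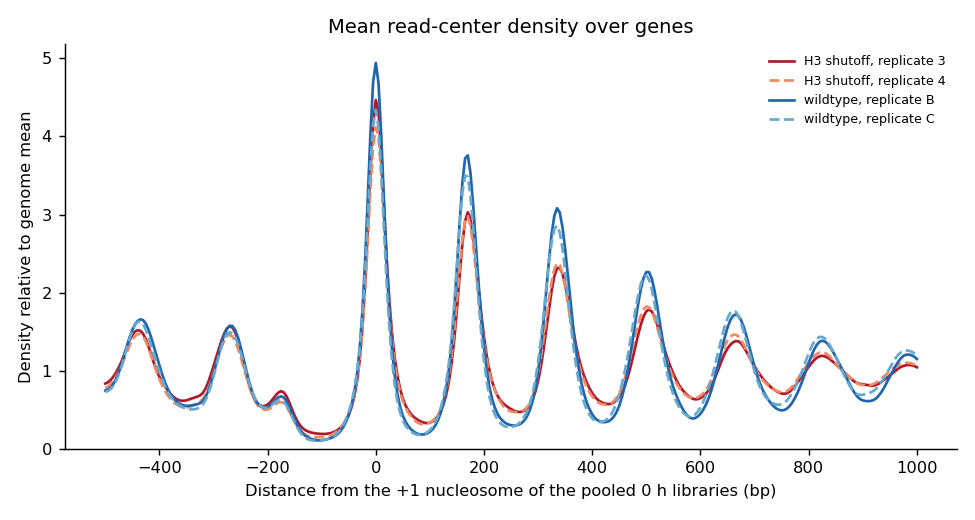
Mean read center density relative to the genome mean (y axis) by distance from the +1 nucleosome of the pooled 0 h libraries (x axis, bp), over 1018 genes, one line per library. The H3 shutoff peaks are lower from +2 onward, with +3 heights of 1.75 and 1.81 against 2.74 and 2.51, and the dip upstream of +1 is less deep.

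The difference in spacing was smaller once fragment length was matched. Called nucleosomes numbered 60253 and 62470 in the H3 shutoff libraries and 64594 and 66048 in wildtype, and the median distance between neighbouring centers was 178 and 174 bp against 170 and 169 bp. When calls were made again on fragments of a common length distribution, there were 62949 and 63094 against 64217 and 64172, and the median distance was 173 and 173 bp against 171 and 171 bp. The strains still did not overlap in either, on fewer fragments per library than were deposited. Distances of over 250 bp made up 18.0% and 14.8% of the deposited calls in the H3 shutoff strain and 11.6% and 9.43% in wildtype. The calling procedure allows no other call within the width of a protected region from a center, so fragment length enters these distances. The share of distances over 250 bp was not measured with the common length distribution.

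The repeat length needs no calls. The first peak of the autocorrelation of read center density lay at 172 and 170 bp in the H3 shutoff libraries and at 169 and 168 bp in wildtype. With the common length distribution it lay at 169 and 169 bp against 168 and 169 bp, and the strains overlapped. The height of this peak over the trough before it was 0.446 and 0.483 against 0.483 and 0.616, where H3 shutoff replicate 4 and wildtype B met (exact permutation p = 0.667, n = 2 each). The second peak was lower in both H3 shutoff libraries, at 0.242 and 0.280 against 0.313 and 0.400.

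Occupancy, the number of read centers within 50 bp of a reference center, gave few calls. Of 61861 windows, 2 passed (edgeR quasi-likelihood test, Benjamini-Hochberg adjusted p under 0.05), which is 0.00323%, and both lay in the chromosome 4 stretch that wildtype lacked. The named one, at 461872, held 111 and 94 read centers in the H3 shutoff libraries and 0 and 0 in wildtype. Without the stretches held in a part of the libraries, which include this one, none of 61294 windows passed with edgeR, and 3992 had an unadjusted p under 0.05. The median log2 difference over all windows was -0.04. Without overlap, 14% of windows were higher and 20.5% lower in the H3 shutoff strain. Random strain labels on 4 distinct values give no overlap with a probability of 0.333, both directions together. The same share stands behind the positions, lengths and promoters below.

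Positions and lengths gave few calls as well. For the mean position of read centers, 0 of 53935 nucleosomes passed (limma, 0%), with 5858 at an unadjusted p under 0.05. Without overlap, 22.3% of nucleosomes lay further along the chromosome in the H3 shutoff strain and 21.9% less far. For fragment length relative to the mean of the library, 3 of 53935 passed (0.00556%), and without overlap 16.2% were higher and 18.8% lower in the H3 shutoff libraries. At position 16330 on chromosome 13 the relative lengths were 3.89 and 8.07 bp in the H3 shutoff libraries and -3.61 and -38.2 bp in wildtype, so that wildtype C, with 390 read centers against 64 to 80 in the other libraries, stood apart. At 905587 on chromosome 7 they were 7.95 and -2.31 bp against -10.4 and -11.7 bp, and at 1843 on chromosome 8 they were 5.10 and 7.38 bp against 21.0 and 14.6 bp.

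Read centers in the 300 bp upstream of the listed starts showed no promoter past the test. Of 1574 promoters 0 passed (edgeR, 0%), with 58 at an unadjusted p under 0.05, and DESeq2 also called 0, with 42. Without overlap, 22.4% were higher and 9.72% lower in the H3 shutoff strain. This split rests on equal library sizes, under which the median log2 difference was 0.07, and the median was 0.00197 with TMM and -0.02 with DESeq2. The promoter of GAL2, the galactose permease, held 92 and 100 read centers in the H3 shutoff libraries and 68 and 110 in wildtype. That of GAL80, the repressor of the galactose genes, held 32 and 22 against 24 and 26, and that of PGM2, a phosphoglucomutase, 115 and 81 against 96 and 85. The strains overlapped at all 3, with log2 differences of 0.11 ± 0.25, 0.11 ± 0.57 and 0.11 ± 0.24 (SE) and edgeR adjusted p of 0.978, 0.992 and 0.971. Among ribosomal protein genes 0 of 32 promoters tested passed, with a median log2 difference of -0.09, and among chromatin genes 0 of 16, with a median of 0.05, beside 0.07 over all promoters.

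In the bodies of these genes the spread was mostly larger in the H3 shutoff strain, as it was in all listed genes. The median spread in the fixed window was larger in 32 of 34 ribosomal protein genes, 3 of 3 galactose genes and 16 of 16 chromatin genes, beside 1495 of 1579 listed genes (94.7%). At GAL2 it was 35.7 and 37.0 bp in the H3 shutoff libraries and 35.3 and 34.4 bp in wildtype, over 10 nucleosomes. At GAL80 it was 31.8 and 30.0 bp against 26.6 and 26.0 bp, over 8. The difference was thus larger at GAL80, 4.59 bp, than at GAL2, 1.45 bp, a pair of values that was not tested.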

How the data were processed

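Paired-end MNase-seq fragments and nucleosome calls of the 4 libraries at 0 h were used. The authors aligned reads with Bowtie 0.12.6 to sacCer1, kept pairs 100 to 200 bases apart, removed the ribosomal DNA locus on chromosome 12, drew an equal number of pairs per library and called nucleosomes from read center density smoothed with an SD of 10 bp. The deposited counts are whole numbers of read centers per nucleosome. A deposited fraction, the part of a call's read centers that fall on its midpoint, was not used. The same calling procedure placed a call within 2 bp of 97.5% to 97.9% of the deposited ones, and gave the reference nucleosomes of the pooled libraries. Strains were compared with exact two-sided permutation tests of library values, with edgeR 4.0.16 on counts (at least 40 read centers in all, equal library sizes) and with limma 3.58.1 on spread, position and length. The fits of window counts and of spread were tested on simulated data. These data held no shift shared by a whole library, so they do not bear on such a shift. DESeq2 1.42.0, TMM, other windows, filters and fragment lengths, each library left out and a block for the split of the partly held stretches were alternatives. Transcripts came from the supplementary list of the study, which covers 6 chromosomes, and chromosome 10 was left out because its listed starts did not line up with the files. Of 1614 transcripts, 1462 matched a symbol in the RefSeq table. Named nucleosomes are the 6 in each direction with the largest change among those that passed without overlap of the strains, counted once within 500 bp. Members and lists were chosen with earlier results of these data known. No genome sequence was used here.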

Additional observations from a re-analysis of the deposited data

Results flagged for a closer look

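The libraries at 3 h are not part of the comparison of the strains at 0 h, and their read centers at the 5 stretches were counted beside it. At the chromosome 4 stretch the H3 shutoff libraries at 3 h held 289 and 289 read centers, 578 together, and the wildtype libraries 1 and 0. At the chromosome 2 stretches of 171, 93 and 138 bp the wildtype libraries at 3 h held 34, 50 and 55 read centers together, and at the chromosome 14 stretch 71, where the H3 shutoff libraries held 0 at each. Groups of 2 libraries were too small to look for a library far from the others.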

How the results depend on the processing

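No paired analysis was possible because the H3 shutoff replicates (3 and 4) and the wildtype replicates (B and C) share no replicate label. The split of the libraries in the partly held stretches comes from the data and not from the labels. Over 13 comparisons of library values, all 99 values under the alternatives kept the direction, but none of these tests can reach the threshold. Where the strains do not overlap, leaving out 1 library cannot change the direction. Those values were fixed in advance and are no measure of stability. Leaving out 1 library moved the difference in median fuzziness between 5.19 and 5.71 bp and that in autocorrelation height between -0.15 and -0.02. The number of windows called by edgeR was 2, and it was 4 with TMM (3 higher, 1 lower), 5 with DESeq2 (3 higher, 2 lower), 5 with 200-bp tiles (3 higher, 2 lower), 1 without a filter, 1 with fragments of 140 to 160 bp, 1 with the common length distribution, 10 with the split of the partly held stretches as a block (3 higher, 7 lower), 0 without the stretches held in a part of the libraries and 0 to 0 with a library left out. The number of nucleosomes called for spread was 8121, and it was 3832 in the fixed window, 5056 in a fit on all 8 libraries, 1461 with the common length distribution, 1 with fragments of 140 to 160 bp, and 0 to 7074 with a library left out. With the fixed window as well it was 1089 and 7 for the same 2 sets of fragments. These 2 fits, the block on the split, and the library values from calls made again on those sets were chosen after seeing the data. The block gave 9592 calls for spread. The median difference in spread stayed between 3.62 and 5.42 bp. With a library left out, calls for position numbered 0 to 2 and calls for length 2 to 50, where the lone library is assumed to vary like the others. The causes were not tested. The median call held 51 to 56 read centers in its window, which limits single nucleosomes more than the medians.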
